A study of Homo sapiens with 6 samples.

Results

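The natriuretic peptide system was followed here through 8 genes: the peptide genes NPPA, NPPB and NPPC, the processing enzymes CORIN and FURIN, and the receptors NPR1, NPR2 and NPR3. They were the table rows carrying these 8 gene names, out of 58735 genes. The set was chosen on the measured values of the same contrast, with NPPB as its leading gene, so the levels of its members are given as a description and no test is attached to them. Of the 8 genes, 3 (NPPB, NPR2 and FURIN) passed the filter on low values that left 13074 genes in the test, and the other 5 are described by their level and reads.

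Transcriptome sequencing compared Hep-G2 cells, a human liver cancer line, with and without knockdown of CLGN, the gene of calmegin, which helps proteins fold in the endoplasmic reticulum. The control group (sh-NC, 3 libraries) is labelled with the genotype WT and the treatment shcontrol, and the knockdown group (sh-CLGN, 3 libraries) with the genotype CLGN knock down and the treatment shCLGN. All 6 libraries carry the cell type label hepatocytes and the batch label 0DAY. Both groups were made with lentivirus and puromycin, and each group is labelled with a single hairpin treatment, so an effect of that hairpin or of the selected culture cannot be told apart from loss of CLGN.

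Natriuretic peptides are hormones whose activity lies in a ring of amino acids closed by a disulfide bond between a pair of cysteines. Atrial and B-type natriuretic peptide, from NPPA and NPPB, are made mainly by heart muscle and act through NPR1, whereas C-type natriuretic peptide, from NPPC, acts through NPR2. Both receptors are guanylyl cyclases of the cell membrane that make cyclic GMP, while NPR3 takes the peptides up for clearance. CORIN and FURIN are proteases that cut the precursors into hormone and leader, and NPPB is best known as the source of the blood marker used in heart failure.

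The ring is what the peptide genes share, so its coding sequence is shown for NPPB, the leading gene, and for NPPC, whose peptide uses the receptor measured best here. Both were read on the minus strand of GRCh38 from the GENCODE 29 transcripts, with the cysteine codons that close the ring in capitals, and each spans 51 bases and 17 residues.
NPPB: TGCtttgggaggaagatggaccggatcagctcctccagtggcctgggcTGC
NPPC: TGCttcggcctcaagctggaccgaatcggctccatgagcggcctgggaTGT

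The NPPB ring lies at chr1:11858218-11858268 and the NPPC ring at chr2:231925428-231925478, both in coding sequence of exon 2. They were identical at 37 of 51 bases and 13 of 17 residues. After the ring, 6 residues follow in the NPPB precursor and 0 in the NPPC precursor. Over whole transcripts the longest run shared by NPPB and NPPC was 13 bases, so a read from one gene has little exact sequence in common with the other.

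FURIN cuts after an arginine that follows an arginine 3 positions earlier, and the last such stretch before the NPPB ring is shown with its arginine codons in capitals.
NPPB site: CGGgcaccaCGA

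This site covers chr1:11858296-11858307 and encodes residues 99 to 102 of the 134-residue precursor, ahead of the ring at residues 112 to 128.

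The targeted gene was lower in the libraries labelled as knockdown. CLGN stood at 24.1, 21.0 and 26.1 FPKM (fragments per kilobase of transcript, scaled to library size) in sh-NC and at 9.48, 8.88 and 8.60 FPKM in sh-CLGN, a fall of 1.31 ± 0.081 (SE) on the log2(FPKM + 1) scale (adjusted p = 8.35e-06, limma). Read totals were similar, at 14955816 to 16244639 reads per library. More genes had at least 1 read in sh-CLGN (26814 to 27006) than in sh-NC (23578 to 23793), and mitochondrial genes took at least 5.49% of reads in sh-CLGN and at most 4.02% in sh-NC. The labels do not say whether the 3 libraries of a group came from separate cultures, so each p-value measures only the spread between these libraries, which may be technical. All 10 hepatocyte markers on the list, ALB and AFP among them, passed the filter. Their summed level was 7086 to 7318 FPKM in sh-NC and 7178 to 7642 FPKM in sh-CLGN. Most of this sum was AFP and ALB, which moved in opposite directions. From sh-NC to sh-CLGN the mean of AFP went from 2670 to 3782 FPKM and that of ALB from 2007 to 1076 FPKM. The similar sums therefore do not mean that each marker kept its level.

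NPPB, the gene of B-type natriuretic peptide, had the highest log2 fold change of all 13074 tested genes on the log2(FPKM + 1) scale. It stood at 8.47, 8.78 and 8.10 FPKM in the sh-NC libraries and at 128, 132 and 127 FPKM in the sh-CLGN libraries, from 82, 89 and 87 reads against 1502, 1500 and 1425 reads. The groups were far apart, and within each group the libraries lay close together. The mean went from 8.45 ± 0.341 to 129 ± 2.59 FPKM (SD, n = 3), a 15.2-fold difference (SE 0.397), or 3.78 ± 0.048 (SE) on the log2(FPKM + 1) scale. By the ratio of mean FPKM NPPB was not the highest, since TAGLN differed 33.1-fold from a lower level. In order of mean level among 19951 protein-coding genes, NPPB stood at position 5172 in sh-NC and at position 195 in sh-CLGN. Its neighbours in the order of all genes were the polarity gene CRB3, CDHR5, DNAJB9, RHOBTB3, PCGF2 and RBM33 in sh-NC, and RAB1B, SET, the proteasome subunit gene PSMB7, the ribosomal protein gene RPS20, STRAP and GSTO1 in sh-CLGN. NPPB overlaps no other gene of the table. In these bulk libraries, more RNA per cell and more cells carrying the RNA cannot be told apart.

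**Figure D1:**
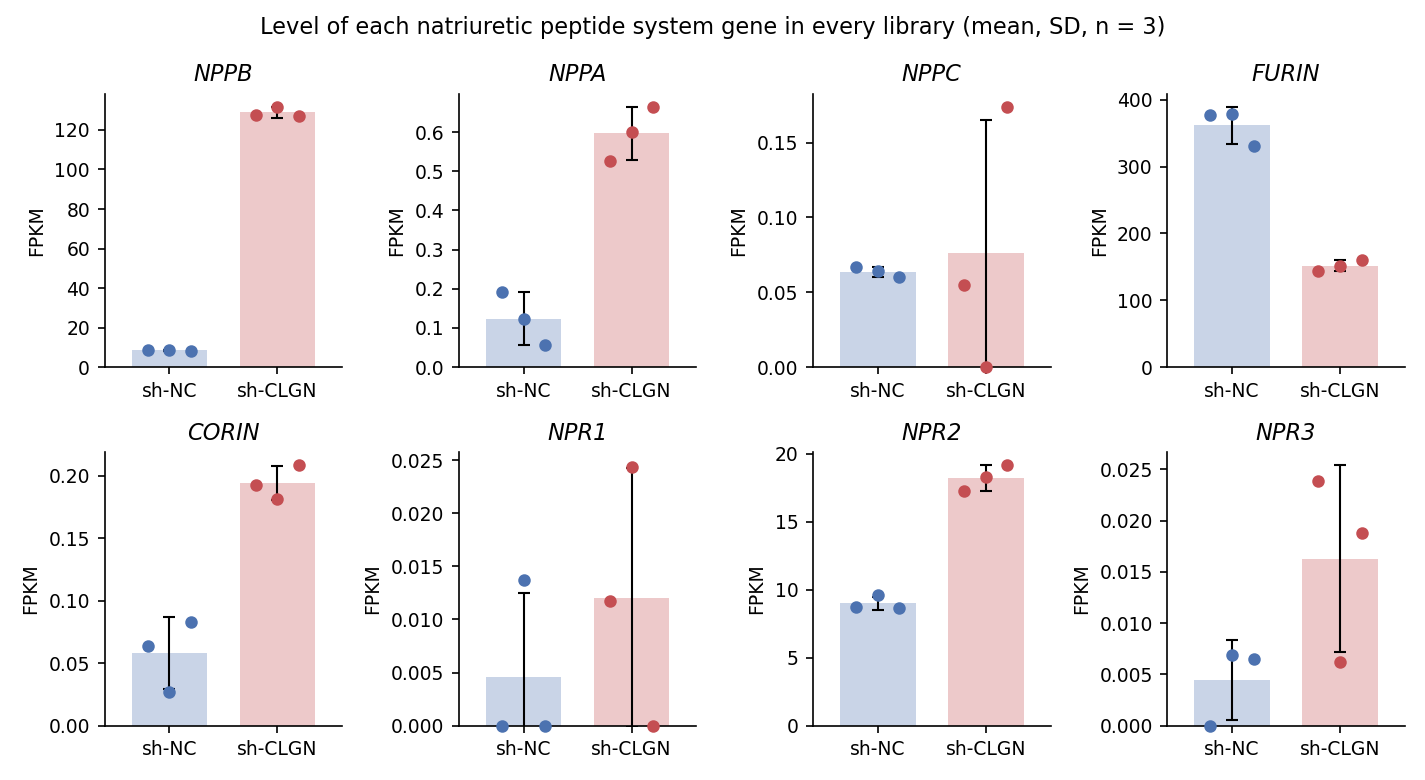
FPKM (vertical axes, linear from 0, a scale of its own for each gene) of the 8 genes in the 3 sh-NC and 3 sh-CLGN libraries; points are libraries, bars are group means and error bars are SD, cut off at 0. The groups are apart for NPPB, NPPA, FURIN, CORIN and NPR2 and overlap for NPPC, NPR1 and NPR3.

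The other peptide genes were near the limit of detection. NPPA, the atrial peptide gene, stood at 0.192, 0.122 and 0.0577 FPKM in sh-NC and 0.526, 0.599 and 0.664 FPKM in sh-CLGN, which is 3, 2 and 1 reads against 10, 11 and 12 reads. All sh-CLGN libraries lay above all sh-NC libraries, and the ratio of summed reads per unit of depth was 4.89 (95% exact interval 2.02 to 14.3, counting error only). Depth in such ratios is the library size by which the FPKM had been scaled, not the read total. NPPA shares exonic bases with CLCN6 on the opposite strand, and the strand setting of the counting is not given in the sources used here, so its few reads cannot be told apart from those of CLCN6. For NPPC, the C-type peptide gene, the sh-NC libraries held 1, 1 and 1 reads and the sh-CLGN libraries 1, 0 and 3. A difference was not detectable at this depth, where 3 reads correspond to 0.165 to 0.201 FPKM. NPPB made up 97.0 to 98.6% of the summed FPKM of the 3 peptide genes in the sh-NC libraries and 99.3 to 99.5% in the sh-CLGN libraries. Per length, the level of NPPB was 44.1 to 140 times that of NPPA in sh-NC and 192 to 242 times in sh-CLGN.

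FURIN, the protease that cuts many hormone and receptor precursors, lay in the other direction. Its libraries stood at 378, 378 and 330 FPKM in sh-NC and 143, 151 and 160 FPKM in sh-CLGN. No sh-CLGN library reached the lowest sh-NC library. The mean of 362 ± 27.7 FPKM in sh-NC compared with 152 ± 8.40 FPKM in sh-CLGN (SD, n = 3), which is 41.9% of the control level and a log2 difference of -1.25 ± 0.070 (SE). FURIN was the member with the highest level in both groups, at position 66 among protein-coding genes in sh-NC and 156 in sh-CLGN, and it overlaps no other gene of the table. Because NPPB and FURIN lay in opposite directions, the ratio of FURIN to NPPB, both per length, was 40.7 to 44.6 in the sh-NC libraries and 1.12 to 1.26 in the sh-CLGN libraries.

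CORIN, the membrane protease that activates the atrial peptide precursor in the heart, was covered by 9, 4 and 13 reads in the control libraries and by 33, 30 and 34 in the knockdown libraries. Its level was 0.0640, 0.0272 and 0.0833 FPKM against 0.193, 0.181 and 0.209 FPKM. The groups did not overlap, and the ratio of summed reads per unit of depth was 3.32 (95% exact interval 2.13 to 5.33). Even so, FURIN was 744 to 832 times higher per length than CORIN in the sh-CLGN libraries. CORIN overlaps an antisense gene, so its reads carry the same doubt about strand as those of NPPA.

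NPPA and CORIN stand among many genes at this level. Of 9013 genes that were below the filter and had at least 10 reads over the 6 libraries, 2937 (32.6%) had every sh-CLGN library above every sh-NC library, and 633 had the reverse. The median ratio of reads per unit of depth over the 8828 of them with reads in sh-NC was 1.54, with quartiles of 0.925 and 2.64. NPPA and CORIN were chosen on this contrast, so nothing is read from their place among these genes. The larger number of detected genes in sh-CLGN moved with them, and its part in their levels was not tested.

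Of the receptors, only NPR2 had a level above 1 FPKM. NPR2, the guanylyl cyclase that binds C-type peptide, stood at 8.73, 9.57 and 8.68 FPKM in sh-NC and 17.2, 18.3 and 19.1 FPKM in sh-CLGN, from 471, 540 and 519 against 1130, 1157 and 1194 reads. All sh-CLGN libraries lay above all sh-NC libraries. The means were 8.99 ± 0.499 and 18.2 ± 0.951 FPKM (SD, n = 3), a 2.02-fold difference (SE 0.0891), or 0.94 ± 0.061 (SE) on the log2(FPKM + 1) scale. NPR2 overlaps SPAG8, so the same limit on strand applies. In sh-NC the levels of NPPB and NPR2 overlapped, with NPPB at 0.918 to 0.970 of NPR2 per length within a library, whereas in sh-CLGN the level of NPPB was 6.65 to 7.40 times that of NPR2.

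For NPR1, the cyclase receptor of the peptides from NPPA and NPPB, the sh-NC libraries held 0, 1 and 0 reads and the sh-CLGN libraries 1, 2 and 0. In every library this is below 3 reads, the count that 0 reads still allow, which is 0.0353 to 0.0430 FPKM for this gene. NPR3, the clearance receptor, had 0, 1 and 1 against 4, 1 and 3 reads, with a ratio per unit of depth of 3.56 (95% exact interval 0.710 to 34.4). For both genes the groups overlapped and a difference was not detectable at this depth. OSTN, which encodes musclin, another ligand of NPR3, was also below the filter, with 0, 0 and 1 reads against 13, 8 and 4. Of genes below the filter with at least 10 reads, 32.6% were separated in this direction, so nothing is read from OSTN.

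By mean level in sh-NC, the order was FURIN, NPR2, NPPB, NPPA, NPPC, CORIN, NPR1 and NPR3. NPR2 and NPPB overlapped there, as did NPPA, NPPC and CORIN, and NPR1 and NPR3. In sh-CLGN the order was FURIN, NPPB, NPR2, NPPA, CORIN, NPPC, NPR3 and NPR1. The genes from FURIN to CORIN were apart from one another, while NPPC, NPR3 and NPR1 overlapped. NPPC, with 1, 0 and 3 reads, reached 0.173 FPKM, just below the lowest CORIN library at 0.181 FPKM, so their order is not settled at this depth. Between the groups, NPPB and NPR2 exchanged places. CORIN and NPPC did so by mean only, as did NPR3 and NPR1, which overlapped in both groups.

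**Figure D2:**
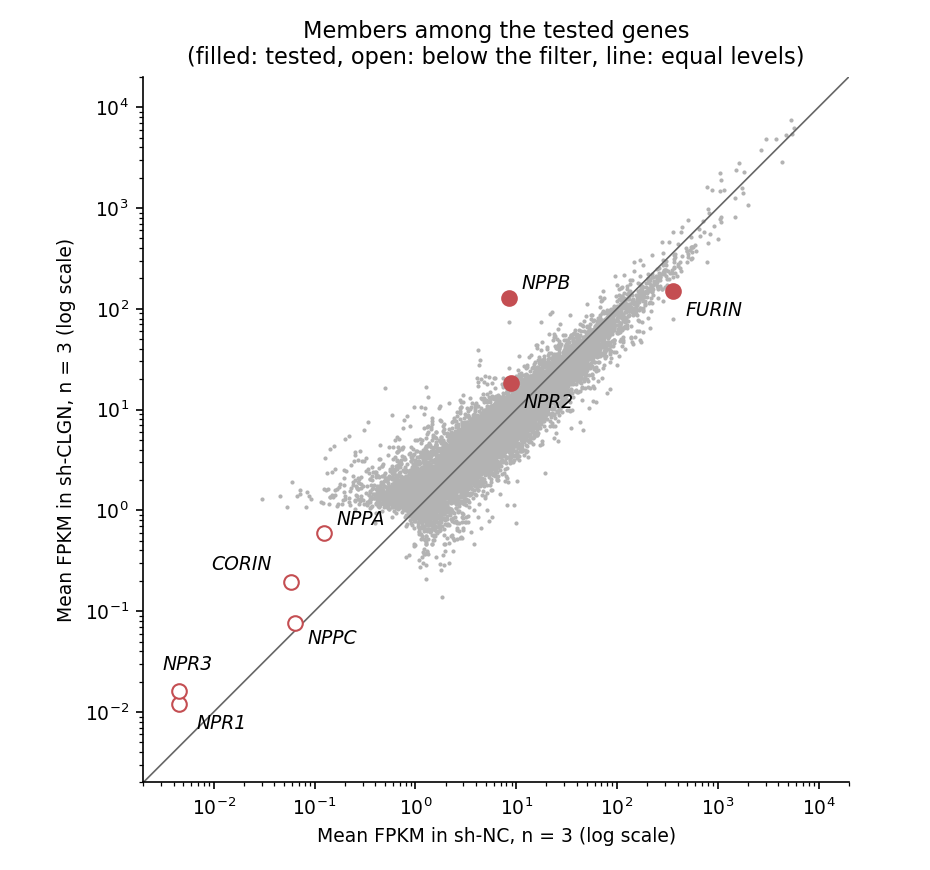
Mean FPKM of 3 sh-NC libraries (horizontal, log scale) against mean FPKM of 3 sh-CLGN libraries (vertical, log scale); grey points are the 13074 tested genes, red filled circles the 3 tested members, open circles the 5 members below the filter, and the line marks equal levels. NPPB lies far above the line at 8.45 and 129 FPKM, NPR2 above it and FURIN below it.

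For scale, adjusted p was at most 0.05 with higher values in sh-CLGN for 26.7% of tested genes and with lower values for 39.0%, and the members at that threshold were NPPB and NPR2 on the higher side and FURIN on the lower side. Both an adjusted p of at most 0.05 and a log2 fold change of at least 1 were met by 821 genes (6.28%; 404 higher and 417 lower), among them NPPB and FURIN. The libraries of the groups did not overlap for 70.2% of tested genes, NPPB, NPR2 and FURIN included. These counts come from the contrast that chose the members and nothing is read from them. NPR2 moved past the fold threshold under 6 other ways of processing, with values of 1.01 to 1.13, and FURIN fell short of it under 2, at -0.94 with quantile normalization and -0.97 with a correction for GC content.

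**Figure D3:**
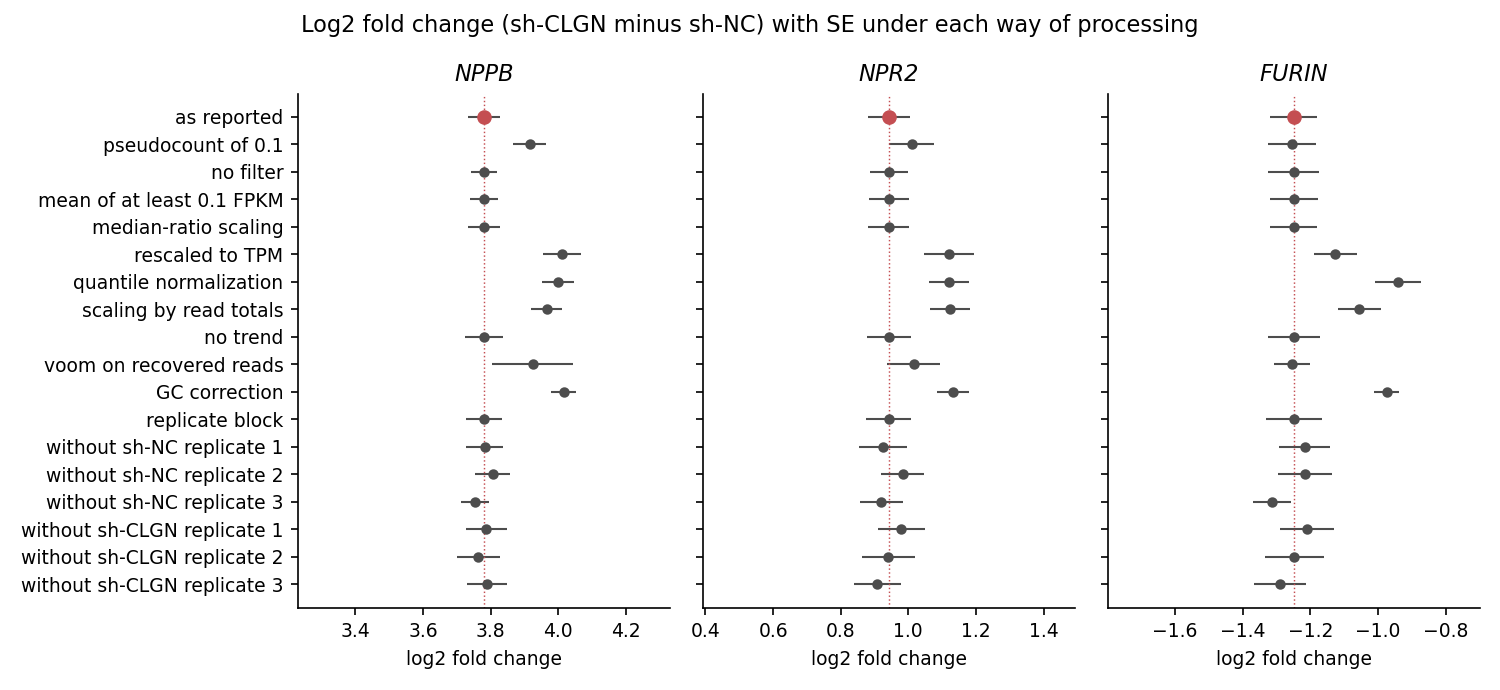
Log2 fold change (sh-CLGN minus sh-NC, horizontal, with SE) of NPPB, NPR2 and FURIN as reported (red, dotted line) and under 11 other ways of processing and 6 fits that each leave out 1 library. NPPB stays between 3.75 and 4.02, NPR2 between 0.91 and 1.13 and FURIN between -1.31 and -0.94.

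The position of NPPB in the genome was not used in choosing the members. NPPB lies at chr1:11857464-11858931 on the minus strand of GRCh38, and NPPA at chr1:11845709-11848345 on the same strand, with 9118 bases between them. Within 100 kb of the pair lie 14 other genes of the table, of which 5 passed the filter and 7 had 0 reads in all libraries. By limma with Benjamini-Hochberg adjustment over all tested genes, 1 of the 5 was higher, 3 were lower and 1 of these also passed the fold threshold. Over all tested genes 26.7% were higher, 39.0% were lower and 6.28% passed both thresholds.

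CLCN6, a chloride and proton exchanger of endosomes that overlaps NPPA, rose from 3.97 ± 0.150 to 6.27 ± 0.480 FPKM (SD, n = 3), with a log2 change of 0.55 ± 0.068 (SE) and an adjusted p of 0.000230 (limma). PLOD1, a lysyl hydroxylase that modifies collagen, fell from 56.0 ± 5.56 to 21.9 ± 1.20 FPKM, with a log2 change of -1.32 ± 0.079 (SE) and an adjusted p of 7.20e-06 (limma). For neither gene did the groups overlap, and the genes lie on opposite sides of NPPB. KIAA2013 had a log2 change of -0.33 (adjusted p = 0.0148) and AGTRAP, which encodes a protein bound to the angiotensin receptor, one of -0.24 (adjusted p = 0.0347). Only PLOD1 stayed lower without sh-NC replicate 2 (KIAA2013 at 0.0519, AGTRAP at 0.105) or without sh-CLGN replicate 1 (0.0544 and 0.0980), and AGTRAP turned to 0.017 with a correction for GC content. AGTRAP also missed the threshold without sh-NC replicate 1 (0.0911), sh-CLGN replicate 2 (0.0588) or sh-CLGN replicate 3 (0.0783).

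**Figure D4:**
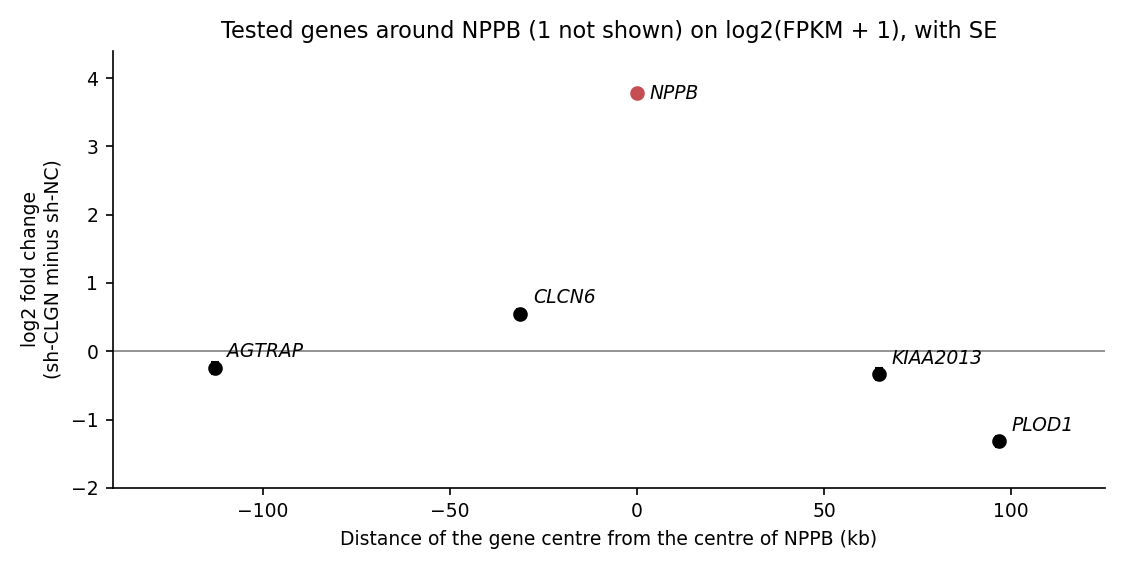
Log2 fold change (sh-CLGN minus sh-NC on log2(FPKM + 1), vertical, with SE, often smaller than the symbol) of 4 of the 5 tested genes around NPPB against the distance of gene centres in kb; filled points passed an adjusted p of 0.05 and NPPB is red, without a test. NPPB is at 3.78, and the neighbours shown lie between -1.32 and 0.55. NPPB was chosen on this contrast and was the highest of all tested genes, so nothing is read from its place above them.

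The other genes of the pathway were taken from lists chosen by role, with earlier results of these data known. Their adjusted p-values and counts are therefore a description and not a separate test. The filter could also be met through 1 group alone. PDE5A, TAGLN and MEF2C were below 1 FPKM in every sh-NC library and passed only through sh-CLGN. Their direction was thus tied to the filter, and nothing is read from their p-values or their part in the counts. Over all tested genes the median log2 fold change was -0.08, and each list is given beside that value. The counts of each list stand beside the shares over all tested genes, 26.7% higher and 39.0% lower, and nothing is read from them.

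Genes of cyclic GMP signalling, the pathway below the receptors, were tested in 10 of 22 cases, with 4 higher, 5 lower and a median of -0.33. PDE5A, a phosphodiesterase that breaks down cyclic GMP, rose from 0.374, 0.448 and 0.588 FPKM to 2.71, 2.62 and 2.92 FPKM (log2 change 1.35 ± 0.092 (SE), adjusted p = 1.22e-05, limma). GUCY2C, the guanylyl cyclase receptor for the gut peptides guanylin and uroguanylin, fell from 25.7, 27.9 and 28.9 FPKM to 10.05, 10.2 and 10.5 FPKM (log2 change -1.34 ± 0.057 (SE), adjusted p = 2.21e-06). The direction therefore differed between the membrane cyclases that passed the filter, with the group means of GUCY2C at 27.5 and 10.3 FPKM beside those of NPR2 at 8.99 and 18.2 FPKM. PDE9A, another phosphodiesterase of cyclic GMP, fell by 0.96 on the log2 scale, and VASP, a cytoskeletal protein phosphorylated by the cyclic GMP-dependent kinase, fell by 0.81. PDE3A, a phosphodiesterase of cyclic AMP that cyclic GMP inhibits, rose by 0.51. Below the filter, the kinase gene PRKG1 had 0 reads in every sh-NC library and 6, 7 and 5 reads in sh-CLGN. Of the soluble cyclase genes, GUCY1B1 had at most 7 reads in any library. GUCY1A2 had 92, 131 and 135 reads against 119, 159 and 163, with overlapping groups, and GUCY1A1 had 2, 2 and 5 against 15, 9 and 20. PDE11A had 43, 55 and 74 reads against 164, 129 and 154. Every sh-CLGN library lay above every sh-NC library for PRKG1, GUCY1A1 and PDE11A, as for 32.6% of genes below the filter with at least 10 reads.

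The other proprotein convertases, relatives of FURIN, were tested in 6 of 8 cases, with 1 higher, 3 lower and a median of -0.42. PCSK6, which can also activate CORIN, fell from 16.7 to 8.40 FPKM (log2 change -0.92, adjusted p = 5.58e-06, limma), and MBTPS1, the site-1 protease of the Golgi, from 27.1 to 16.7 FPKM (log2 change -0.66). PCSK5 rose from 2.58 ± 0.0620 to 4.98 ± 0.336 FPKM (log2 change 0.74, adjusted p = 4.57e-05). PCSK7 stood at 1.504 and 1.204 FPKM with an adjusted p of 0.0879, and it passed with quantile normalization, without the trend and with voom.

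Genes for peptide breakdown were tested in 4 of 7 cases, with 1 higher, 1 lower and a median of -0.06. ECE1, the endothelin-converting enzyme, fell from 49.5, 51.5 and 45.1 FPKM to 15.7, 15.8 and 17.2 FPKM (log2 change -1.53 ± 0.064 (SE), adjusted p = 2.07e-06, limma). MME, the gene of neprilysin, which degrades natriuretic peptides, had 0 reads in all 6 libraries. DPP4, which trims B-type peptide, had a log2 change of 0.17 with an adjusted p of 0.0437, and of 0.0634 to 0.130 without any one of the 6 libraries. IDE, the insulin-degrading enzyme, stood at 11.1 and 11.1 FPKM with a log2 change of -0.0027, and MEP1A, a meprin subunit, at 66.0 and 60.9 FPKM with an adjusted p of 0.134, or 0.0386 without sh-NC replicate 1.

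Regulators known to act on natriuretic peptide genes in heart cells were tested in 24 of 31 cases, with 3 higher, 14 lower and a median of -0.29. EGR1, an early growth response factor, fell from 20.6, 19.2 and 17.8 FPKM to 1.90, 2.53 and 2.55 FPKM (log2 change -2.61 ± 0.094 (SE), adjusted p = 1.32e-06, limma). JUN, a part of AP-1, fell from 75.7 to 37.6 FPKM (log2 change -0.99), GATA4, a zinc finger factor of heart and liver, from 28.9 to 17.2 FPKM (log2 change -0.72) and SRF, the serum response factor, from 11.9 to 6.38 FPKM (log2 change -0.80). KLF13 fell by 0.63 on the log2 scale. The 3 that rose were MEF2C (log2 change 0.39), YAP1 (0.35) and REST (0.26), a repressor of natriuretic peptide genes. NKX2-5, TBX5, MYOCD and HAND2, factors that define heart muscle, had 0 reads in all 6 libraries.

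Genes known to follow stretch or hypertrophy in muscle were tested in 6 of 13 cases, with 3 higher, 2 lower and a median of 0.30. TAGLN, an actin-binding protein of smooth muscle, rose from 0.494, 0.595 and 0.396 FPKM to 16.4, 15.8 and 16.9 FPKM (log2 change 3.54 ± 0.070 (SE), adjusted p = 1.46e-07, limma). ANKRD1, an ankyrin repeat protein of stressed heart muscle, rose from 14.1 to 34.9 FPKM (log2 change 1.25), and CYR61 from 18.7 to 26.9 FPKM (log2 change 0.50). ATF3, a stress-induced factor, fell from 24.6 to 5.81 FPKM (log2 change -1.91), and CTGF from 150 to 95.7 FPKM (log2 change -0.64). RCAN1, a calcineurin inhibitor, stood at 13.2 and 14.2 FPKM with an adjusted p of 0.240, and its groups overlapped.

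Other vasoactive peptide genes were tested in 5 of 16 cases, with 0 higher, 3 lower and a median of -0.43. ADM2, an adrenomedullin, fell from 28.4 ± 3.91 to 11.8 ± 1.22 FPKM (log2 change -1.19, adjusted p = 4.79e-05, limma), ADM from 7.35 to 5.14 FPKM (log2 change -0.45) and the kininogen gene KNG1 from 15.0 to 10.9 FPKM (log2 change -0.43). AGT, the gene of angiotensinogen, stood at 381 and 346 FPKM with an adjusted p of 0.0601, or 0.00783 without sh-NC replicate 3, and its log2 change of -0.14 turned to 0.19 with quantile normalization. EDN1, the gene of endothelin-1, stood at 5.40 and 4.95 FPKM with an adjusted p of 0.242. None of the 5 tested genes was higher, where 26.7% of all tested genes were, and with so few genes nothing is read from this. Below the filter, the peptide gene APLN had 4, 2 and 3 reads in sh-NC against 13, 10 and 14 in sh-CLGN. Such a separation was seen for 32.6% of genes below the filter with at least 10 reads.

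**Figure D5:**
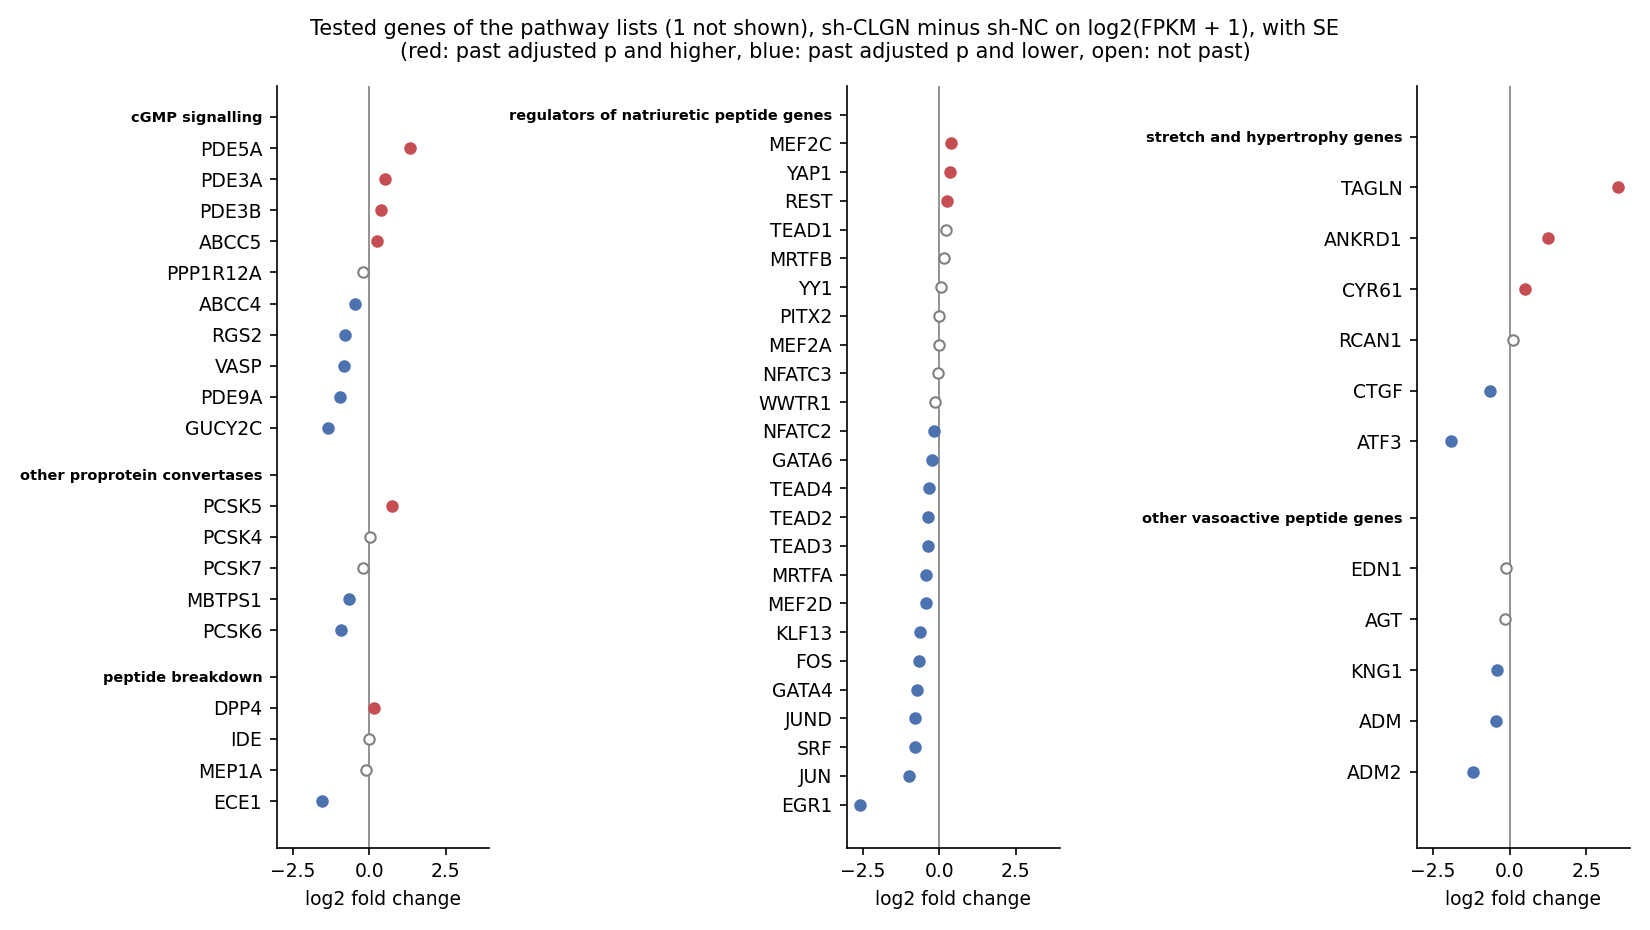
Log2 fold change (sh-CLGN minus sh-NC on log2(FPKM + 1), horizontal) of the tested genes of 6 lists, less 1 gene, with SE bars mostly smaller than the symbols; red and blue points passed an adjusted p of 0.05 as higher and lower, and open points did not. Across the whole lists 12 genes were higher and 28 lower, from EGR1 at -2.61 to TAGLN at 3.54. Over all tested genes 26.7% were higher and 39.0% lower.

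Markers of other cell types were read beside NPPB. Of 10 cardiomyocyte markers, 0 passed the filter, and MYH6, MYL2, RYR2 and PLN had 0 reads in all libraries. Their summed level was 0.0160 to 0.0953 FPKM in sh-NC and 0.626 to 1.41 FPKM in sh-CLGN, with MYBPC3 at 0, 1 and 0 reads against 19, 15 and 18 and MYL7 at 0 reads in sh-NC against 27, 15 and 7. TNNT2 had 0 reads in sh-NC against 6, 8 and 8. MYH7 had 4, 0 and 0 reads against 0 in sh-CLGN, and TNNI3 had 1, 0 and 1 against 0, 1 and 0. Of genes below the filter with at least 10 reads, 32.6% had every sh-CLGN library above every sh-NC library. The part of the cardiomyocyte marker reads in the level of NPPB was not tested. Of 8 fibroblast markers 4 were tested, with LUM (log2 change 1.08), COL3A1 (1.08) and PDGFRB (0.27) higher and FBLN1 (-0.49) lower. LUM and COL3A1 were below 1 FPKM in every sh-NC library and passed the filter only through sh-CLGN, so nothing is read from their direction. FAP had 0 reads in all libraries, and the summed fibroblast level was 51.6 to 61.0 FPKM in sh-NC and 44.7 to 46.8 FPKM in sh-CLGN. Most of this sum was FBLN1, with means of 54.5 and 38.4 FPKM, so the sum mainly follows that gene. Below the filter, PDGFRA had 64, 46 and 70 reads in sh-NC against 179, 136 and 144 in sh-CLGN. Of 6 endothelial markers only PECAM1 was tested, and it fell by 0.28 on the log2 scale. ERG and KDR had 0 reads in all libraries, and the summed endothelial level was 3.36 to 3.67 FPKM in sh-NC and 2.38 to 2.65 FPKM in sh-CLGN. Among the 10 hepatocyte markers 3 were higher and 6 lower, led by TF (log2 change -1.62), ALB (-0.90), FGB (0.72) and TTR (0.58). The shares over all tested genes were 26.7% higher and 39.0% lower.

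The genes whose log2(FPKM + 1) values ran closest to those of NPPB over the 6 libraries, among genes past both thresholds, were FMOD, SPARC, TAGLN, SULT1C2 and NTN4. Their Pearson r with NPPB was 0.99958 to 0.99986 over the 6 libraries, which fall into 2 groups, so r mainly reads the distance between the groups and the small spread within them. SPARC, which encodes a secreted matrix glycoprotein, stood at 8.83, 8.68 and 8.08 FPKM in sh-NC, close to the level of NPPB, and at 72.8, 71.8 and 74.9 FPKM in sh-CLGN. FMOD, the gene of the collagen-binding proteoglycan fibromodulin, had means of 4.05 and 20.4 FPKM. SULT1C2, a sulfotransferase, had means of 1.45 and 8.33 FPKM, and NTN4, the gene of the basement membrane protein netrin-4, 0.754 and 4.21 FPKM. None of the 5 reached the level of NPPB in sh-CLGN. TAGLN and NTN4 were below 1 FPKM in every sh-NC library and passed the filter only through sh-CLGN.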

How the data were processed

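RNA of Hep-G2 cells was sequenced in 3 sh-NC and 3 sh-CLGN libraries, and the authors deposited 1 table of FPKM per gene. The submitters' processing notes name HISAT2 2.0.5, featureCounts and GRCh38. Their strand setting and featureCounts version are not given in the sources used here. All 58735 genes matched GENCODE 29 positions. Multiplying the deposited FPKM by gene length gave whole reads for 100% of values (within 0.01 read) in all libraries, which supplied the reads, depths and exact intervals printed here (95%, counting error only, floor of 3 reads). FPKM had been scaled by a library size of 0.933 to 0.953 times the read total in sh-NC and 1.07 to 1.08 times in sh-CLGN. Ratios of reads per unit of depth used this library size.

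The filter asked for 1 FPKM or more in 3 or more libraries, so a gene could pass through 1 group alone. The 13074 genes that passed were tested with limma 3.58.1 (R 4.3.3) on log2(FPKM + 1), with an intensity trend, two-sided, and Benjamini-Hochberg adjustment over all of them. A fold change on this scale understates the change of low genes. Calls needed an adjusted p of at most 0.05 and, where stated, a log2 fold change of at least 1. The scripts were tested on simulated data. Figures and intervals used Python 3.11.15 with scipy 1.17.1 and matplotlib 3.10.9.

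The members and lists were chosen with earlier results of these data known. Named were all members, CLGN, tested genes within 100 kb, and per list those past both thresholds plus the next by adjusted p up to 5; the 5 genes past both thresholds most like NPPB; and the 3 genes above and below it in level. MEF2C, YAP1, REST, RCAN1, PRKG1, GUCY1B1, GUCY1A1, GUCY1A2, PDE11A, OSTN and the genes named for having 0 reads were added after their values were seen. So were APLN, PDGFRA, MYBPC3, MYL7, TNNT2, MYH7, TNNI3 and the level of AFP. A few items that the rule names are not reported here. Alternatives changed the pseudocount, filter, scaling, GC trend, variance trend, test (voom on genes with at least 10 reads), replicate block and libraries.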

Additional observations from a re-analysis of the deposited data

How the results depend on the processing

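NPPB, NPR2, FURIN and CLGN kept their direction, and CLGN its side of an adjusted p of 0.05 (limma), under all 11 alternatives and when each library was left out. The log2 fold change of NPPB ran from 3.78 to 4.02 over the alternatives, that of NPR2 from 0.94 to 1.13, that of FURIN from -1.25 to -0.94 and that of CLGN from -1.54 to -1.12. The median over all tested genes moved by 0.11 with TPM and by 0.16 with read totals, so values under those scalings carry that shift. The count past both thresholds was 821 (404 higher, 417 lower). It was 1606 (925 and 681) with a pseudocount of 0.1, 1426 (1002 and 424) with TPM, 3845 (2832 and 1013) with voom on recovered reads, 840 (605 and 235) with read totals and 720 (478 and 242) with GC correction. Genes of the pathway lists that were higher numbered 12, and 20 with voom. Of the neighbours, 3 were lower, but 1 with no filter, TPM, quantile normalization, read totals or GC correction, and 1 to 3 when 1 library was left out. The neighbours that were higher numbered 1, but 2 with TPM, read totals or GC correction. AGT turned to 0.19 with quantile normalization and AGTRAP to 0.017 with GC correction, and the cause was not tested.

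The 5 members below the filter depend on the pseudocount, since their values lie far below 1 FPKM. NPPA, at 0.51, was at 1.68 with a pseudocount of 0.1, 1.20 with TPM and 2.13 with voom. CORIN, at 0.17, was at 0.91, 0.53 and 1.80 under the same 3. NPR1 was at 0.097 and 0.041 and NPR3 at 0.15 and 0.063 with the pseudocount of 0.1 and TPM. NPPC was at -0.017 with the pseudocount of 0.1 and between -0.050 and 0.065 when 1 library was left out. With no filter all 5 entered the tested set, NPPA at 0.51 and CORIN at 0.17, and with a mean of at least 0.1 FPKM both NPPA and CORIN did, at the same values.

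Replicate numbers were not used to pair libraries, since same-numbered libraries did not deviate together (r = -0.02, -0.05 and -0.15). With the replicate block the count past both thresholds was 821, NPPB was at 3.78, and DPP4, at 0.17, no longer passed (adjusted p = 0.0883, limma).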
